A study of Mus musculus with 8 samples.

Results

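The 10 genes described here encode core components of transforming growth factor beta (TGF-β) signalling and were chosen by name, with earlier results of these data known. They are the ligand genes Tgfb1, Tgfb2 and Tgfb3, the receptor genes Tgfbr1 and Tgfbr2, the signal transducer genes Smad2, Smad3, Smad4 and Smad7, and the target gene Tgfbi. All 10 were found among the 31053 Ensembl genes of the deposited count table, and 8 of them had enough counts to be among the 8930 genes tested between genotypes. Tgfb2 and Tgfb3 did not pass the filter on low counts, and their values are given without a model-based test.

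TGF-β ligands are secreted in a latent complex, are released from it in the extracellular space, and bring together a type II receptor (TGFBR2) and a type I receptor (TGFBR1) at the cell surface. The type I receptor phosphorylates SMAD2 and SMAD3, which join SMAD4 and enter the nucleus to regulate transcription, and SMAD7 is an induced inhibitor of the receptor. In adipose tissue the pathway is known for driving the production of extracellular matrix and for restraining adipocyte differentiation, and TGF-β1 is made by many cell types, macrophages and platelets among them.

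Bulk RNA-seq was performed on brown adipose tissue (BAT) of 4 WT and 4 Ucp1Δ/Δ mice to ask how the loss of adipose triglyceride lipase (ATGL) in thermogenic adipocytes changes gene expression in the depot. All 8 mice were of the C57BL6/J strain and the study's methods describe males. The labels give an age of 10 weeks, whereas a legend in the paper gives 8 weeks. The Ucp1Δ/Δ mice carried floxed alleles of Pnpla2, the gene encoding ATGL, together with a Cre recombinase driven by Ucp1, so that the deletion was restricted to UCP1-expressing adipocytes and the other cells of the tissue kept the gene. The labels name the tissue as BAT and the cell type as stromal vascular fraction, the non-adipocyte cells of the depot. The summed level of 12 brown adipocyte markers was high in every mouse, from 14330 to 24250 CPM (counts scaled by library size) in WT and from 10400 to 15440 CPM in Ucp1Δ/Δ mice, and the values are therefore described as those of BAT.

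Total counts ranged from 2017697 to 3115956 per mouse, of which 38.4% to 45.6% fell on mitochondrially encoded genes, so that 3 counts corresponded to between 0.933 and 1.53 CPM. At this depth several of the members were counted fewer than 10 times in a mouse, which limits the precision of each value, and this floor covers counting error only. Pnpla2 had 2913 ± 191 CPM (SD, n = 4) in WT and 474 ± 59.2 CPM (SD, n = 4) in Ucp1Δ/Δ mice, with no overlap between genotypes. The series is described as having biological replicates, and the paper's legend for this comparison gives 4 mice per group. No label ties each sample to an animal of its own, and the p-values measure the spread between these 8 samples. The sum of 12 skeletal muscle markers varied widely within both genotypes, from 120.2 to 2275 CPM in WT and from 163.4 to 3122 CPM in Ucp1Δ/Δ mice.

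Of the 8 tested members, 4 were higher in Ucp1Δ/Δ mice, 0 were lower and 4 did not pass the test by the quasi-likelihood test of edgeR, with p adjusted after Benjamini-Hochberg over all tested genes and a threshold of 0.05. Tgfb1, Smad3, Smad7 and Tgfbi were the genes that rose, by 2.01-fold to 3.79-fold, whereas the receptors, Smad2 and the common partner Smad4 did not pass. The share of tested members that rose was 50%, against 13.3% of all genes tested, and 7.63% of all genes tested were lower. Tgfb1 and Smad7 passed the filter on low counts through their level in Ucp1Δ/Δ mice. In WT mice neither exceeded 3.06 CPM, near the untested Tgfb2 at up to 2.69 CPM. When the filter asked each mouse for 10 counts, 2 of 5 tested members rose, and 746 of 6928 genes. When it asked for 1 count in a single mouse, 4 of 10 members rose, and 1630 of 16617 genes. These shares describe the genes tested and do not test the members as a set. The median log2 fold change (log2FC, Ucp1Δ/Δ over WT) was 0.74 over the 8 tested members and -0.0087 over all tested genes. Every Ucp1Δ/Δ mouse lay above every WT mouse in 4 of the 8 tested members, the same 4 that rose, and in 14.4% of all genes tested. Such separation goes with a call and is no separate result.

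**Figure D1:**
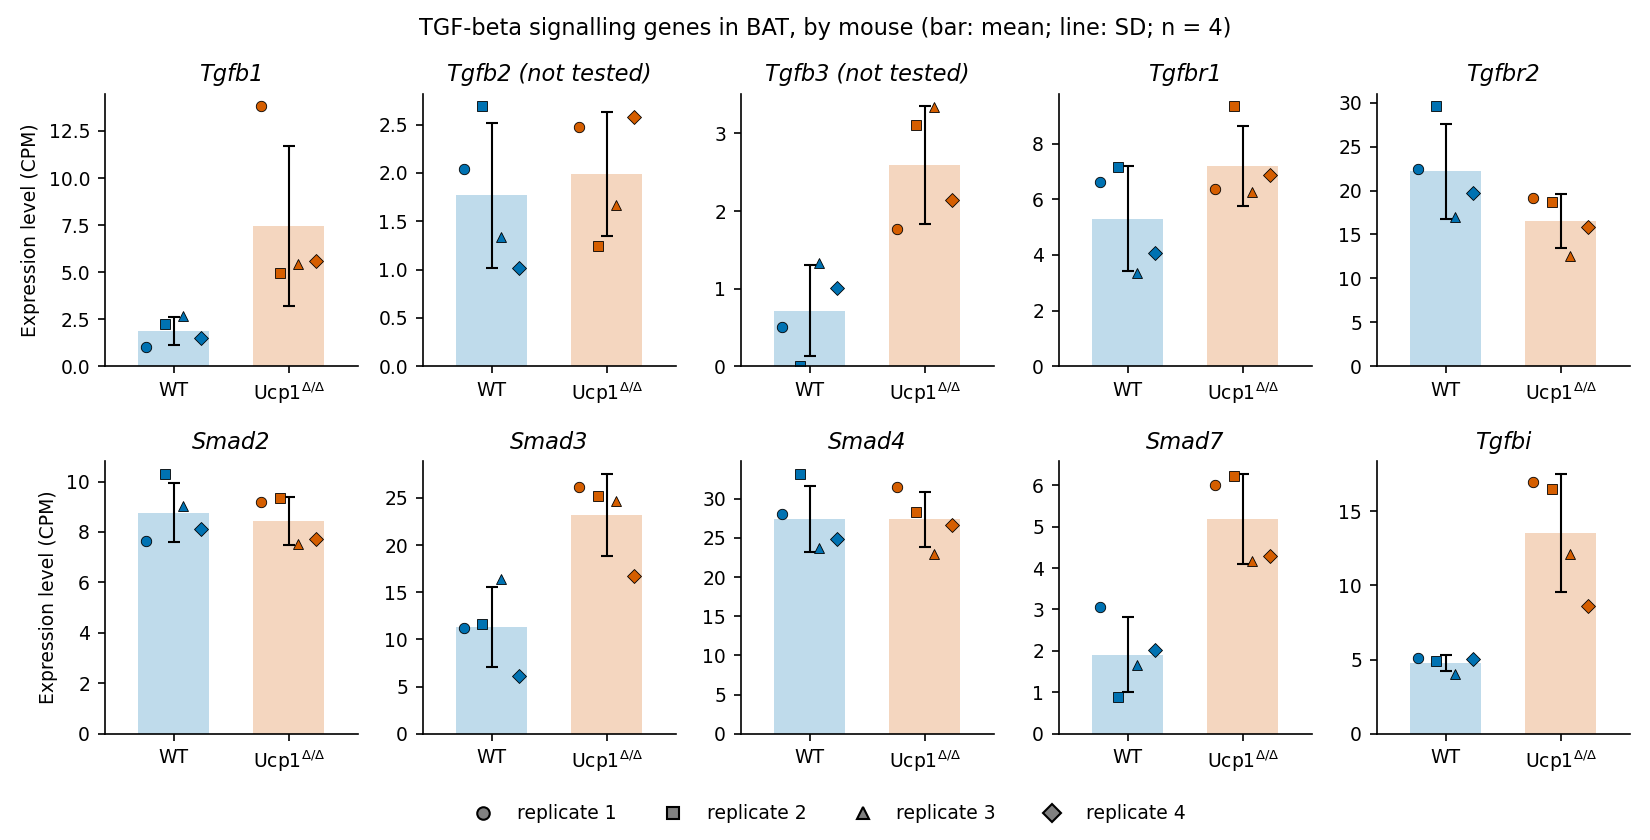
Expression level in CPM of each of the 10 TGF-β signalling genes in BAT, with 1 point per mouse (shape gives the replicate number), bars for the mean and lines for the SD (n = 4 mice per genotype; each panel has its own linear axis from 0). The Ucp1Δ/Δ points lie above all WT points for Tgfb1, Tgfb3, Smad3, Smad7 and Tgfbi, and the genotypes overlap for the other 5 genes.

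The sequences upstream of 3 of the genes that rose are shown with their matches to the motifs of SMADs and of factors that act with them. RefSeq promoter windows (GRCm38.p6, the 250 bases before the annotated start) were matched for 6 of the 10 members, and those of Tgfb3, Smad2, Smad4 and Smad7 are not shown. Motifs were searched on both strands as CAGAC (the SMAD half-site, GTCTG on the other strand), GTCTAGAC (its palindromic form, which does not contain the half-site as written), TGANTCA (the site of AP-1, a frequent partner of SMADs) and GGGCGG (the GC box bound by SP1 family factors, CCGCCC on the other strand). Capitals mark matches to CAGAC and GGGCGG on either strand. The Tgfb1 window lies at chr7:25686752-25687001 on the plus strand, the Smad3 window at chr9:63757995-63758244 on the minus strand, and the 187 bases shown for Tgfbi at chr13:56609336-56609522 on the plus strand, each printed 5′ to 3′ in the direction of the gene.
Tgfb1: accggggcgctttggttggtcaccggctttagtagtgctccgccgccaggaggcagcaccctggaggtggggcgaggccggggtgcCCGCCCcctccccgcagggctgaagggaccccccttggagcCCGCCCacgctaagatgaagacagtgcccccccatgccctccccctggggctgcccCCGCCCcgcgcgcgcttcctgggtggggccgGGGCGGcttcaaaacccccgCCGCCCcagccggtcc
Smad3: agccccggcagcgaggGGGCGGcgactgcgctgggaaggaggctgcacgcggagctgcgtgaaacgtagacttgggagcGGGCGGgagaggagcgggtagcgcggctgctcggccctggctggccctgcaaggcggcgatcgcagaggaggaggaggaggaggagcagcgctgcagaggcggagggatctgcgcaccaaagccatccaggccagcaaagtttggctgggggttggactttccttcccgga
Tgfbi: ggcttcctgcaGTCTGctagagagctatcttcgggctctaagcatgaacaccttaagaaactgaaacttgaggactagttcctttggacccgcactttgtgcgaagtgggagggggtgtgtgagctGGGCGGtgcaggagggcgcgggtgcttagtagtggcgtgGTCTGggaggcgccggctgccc

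The Tgfb1 window had a GC content of 75.2% and held 5 matches to GGGCGG and 0 to the other 3 motifs. The Smad3 window, at 69.2% GC, held 2 matches to GGGCGG and 0 to the others. The Tgfbi window of RefSeq, chr13:56609336-56609585, runs into the gene as GENCODE places its start, so only the bases before that start are printed. Over the whole window, at 62.4% GC, it held 2 matches to CAGAC and 1 to GGGCGG. Among members that did not rise or were not tested, CAGAC had 2 matches upstream of Tgfb2, 1 upstream of Tgfbr2 and 1 upstream of the second of the annotated starts of Tgfbr1, whose first start had 2 matches to GGGCGG. These short motifs are common, with CAGAC in 42.2% and GGGCGG in 32.7% of 32841 RefSeq windows of the same length, against 6.75% for TGANTCA and 0.167% for GTCTAGAC. The matches describe the letters of these windows and were not tied to binding.

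Among the ligand genes, Tgfb1 rose and had the largest log2FC of the tested members, Tgfb3 was at very low counts with non-overlapping genotypes, and Tgfb2 was at very low counts with overlapping genotypes. Tgfb1 (ENSMUSG00000002603, chr7:25687002-25705077 of mm10, plus strand, protein coding) encodes the main TGF-β isoform of immune and connective tissue cells. In order of replicate number, WT mice had 2, 5, 8 and 3 counts and Ucp1Δ/Δ mice 39, 16, 13 and 13, and the same order is kept for all values by mouse. In CPM these were 1.02, 2.24, 2.67 and 1.52 in WT and 13.8, 4.98, 5.43 and 5.58 in Ucp1Δ/Δ mice. All 4 Ucp1Δ/Δ mice were above all 4 WT mice, and Ucp1Δ/Δ replicate 1 stood well above the other Ucp1Δ/Δ mice. The mean went from 1.86 ± 0.736 to 7.45 ± 4.24 CPM (SD, n = 4 each). The rise fitted by the model, which is not the ratio of these means, was 3.79-fold (log2FC 1.92, SE 0.45, 95% interval 0.95 to 2.89, adjusted p = 0.00658, Benjamini-Hochberg over the quasi-likelihood test of edgeR). The two-sided exact permutation test on log2 CPM gave p = 0.0286, the smallest that 4 mice against 4 allow, and it was run on each of the 10 members. Without Ucp1Δ/Δ replicate 1 the log2FC was 1.44 (adjusted p = 0.0298), and the gene passed the test in all 17 of the alternative settings in which it was tested.

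Tgfb2 (ENSMUSG00000039239, chr1:186622792-186705989, minus strand), an isoform best known from development, had 4, 6, 4 and 2 counts in WT and 7, 4, 4 and 6 counts in Ucp1Δ/Δ mice. In CPM it was 2.04, 2.69, 1.34 and 1.01 in WT and 2.48, 1.24, 1.67 and 2.58 in Ucp1Δ/Δ mice, and the genotypes overlapped. The means were 1.77 ± 0.748 and 1.99 ± 0.642 CPM (SD, n = 4 each; two-sided exact permutation test on log2 CPM, p = 0.657). At a few counts per mouse a modest difference was not detectable, and the antisense gene Gm29491, which shares exonic sequence with Tgfb2, is listed at 0 counts.

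Tgfb3 (ENSMUSG00000021253, chr12:86056745-86079041, minus strand), an isoform known from mesenchymal tissue, had 1, 0, 4 and 2 counts in WT and 5, 10, 8 and 5 counts in Ucp1Δ/Δ mice. These values were 0.510, 0, 1.34 and 1.01 CPM in WT and 1.77, 3.11, 3.34 and 2.15 CPM in Ucp1Δ/Δ mice. The genotypes did not overlap, but the lowest Ucp1Δ/Δ mouse and the highest WT mouse differed by a single raw count. The mean was 0.715 ± 0.585 CPM in WT and 2.59 ± 0.755 CPM in Ucp1Δ/Δ mice (SD, n = 4 each), a difference of 1.23 in mean log2 CPM (p = 0.0286, the smallest possible, by the two-sided exact permutation test). When all genes with at least 1 count in any mouse were kept, its log2FC was 1.69 (SE 0.70) and it did not pass (adjusted p = 0.0905, quasi-likelihood test of edgeR, Benjamini-Hochberg). Its exons overlap the annotated genes Gm37804 and Gm48008 on the other strand, and whether the counting used strand is not given in the sources used here.

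Neither receptor gene passed the test, and their fitted differences pointed in opposite directions. Tgfbr1 (ENSMUSG00000007613, chr4:47353222-47414931, plus strand), the type I receptor kinase, was at 6.63, 7.17, 3.34 and 4.05 CPM in WT and 6.37, 9.33, 6.27 and 6.87 CPM in Ucp1Δ/Δ mice. WT replicates 3 and 4 were lowest, WT replicates 1 and 2 lay among the Ucp1Δ/Δ mice, and the means were 5.30 ± 1.88 and 7.21 ± 1.44 CPM (SD, n = 4 each). Its log2FC was 0.48 (SE 0.33, 95% interval -0.22 to 1.17, adjusted p = 0.342, quasi-likelihood test of edgeR, Benjamini-Hochberg). Tgfbr2 (ENSMUSG00000032440, chr9:116084293-116175360, minus strand), the receptor that binds the ligand first, was at 22.4, 29.6, 17.0 and 19.8 CPM in WT and 19.1, 18.7, 12.5 and 15.9 CPM in Ucp1Δ/Δ mice. WT replicate 2 was highest and Ucp1Δ/Δ replicate 3 lowest, with overlap between the genotypes, and the means were 22.2 ± 5.39 and 16.5 ± 3.03 CPM (SD, n = 4 each). Its log2FC was -0.41 (SE 0.23, 95% interval -0.89 to 0.07, edgeR adjusted p = 0.232). The intervals include no change and also leave room for a rise of Tgfbr1 and a fall of Tgfbr2.

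Of the SMAD genes, Smad3 and the inhibitory Smad7 were higher in Ucp1Δ/Δ mice, and Smad2 and Smad4 did not pass the test. Smad3 (ENSMUSG00000032402, chr9:63646767-63757994, minus strand), which binds DNA and is phosphorylated by the type I receptor, was at 11.2, 11.7, 16.4 and 6.08 CPM in WT and 26.2, 25.2, 24.7 and 16.7 CPM in Ucp1Δ/Δ mice. The highest WT mouse, replicate 3, and the lowest Ucp1Δ/Δ mouse, replicate 4, nearly met, and the other mice were well separated. The mean rose from 11.3 ± 4.20 to 23.2 ± 4.35 CPM (SD, n = 4 each). The fitted rise was 2.01-fold (log2FC 1.01, SE 0.27, 95% interval 0.44 to 1.57, adjusted p = 0.0130, quasi-likelihood test of edgeR, Benjamini-Hochberg). Smad3 passed in all 18 alternative settings, with an adjusted p of at most 0.0409.

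Smad7 (ENSMUSG00000025880, chr18:75367529-75395935, plus strand), which is induced by the pathway and blocks the receptor, was counted 6, 2, 5 and 4 times in WT and 17, 20, 10 and 10 times in Ucp1Δ/Δ mice. Its level was 3.06, 0.896, 1.67 and 2.03 CPM in WT and 6.02, 6.22, 4.18 and 4.29 CPM in Ucp1Δ/Δ mice. Ucp1Δ/Δ replicates 1 and 2 were highest, and no WT mouse reached the lowest Ucp1Δ/Δ mouse. The mean went from 1.91 ± 0.898 to 5.18 ± 1.09 CPM (SD, n = 4 each), and the fitted rise was 2.76-fold (log2FC 1.46, SE 0.40, 95% interval 0.62 to 2.31, edgeR adjusted p = 0.0155). This call was lost with DESeq2's Wald test (log2FC 1.44, adjusted p = 0.0598) and without WT replicate 3 (log2FC 1.39, edgeR adjusted p = 0.0600). Without Ucp1Δ/Δ replicate 1 or replicate 2 the gene fell below the filter on low counts and was not tested.

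Smad2 (ENSMUSG00000024563, chr18:76241580-76310963, plus strand), the other SMAD phosphorylated by the type I receptor, was at 7.65, 10.3, 9.02 and 8.11 CPM in WT and 9.20, 9.33, 7.52 and 7.73 CPM in Ucp1Δ/Δ mice. The genotypes interleaved, with means of 8.77 ± 1.17 and 8.45 ± 0.954 CPM (SD, n = 4 each) and a log2FC of -0.05 (SE 0.25, 95% interval -0.58 to 0.48, edgeR adjusted p = 0.915). Smad4 (ENSMUSG00000024515, chr18:73639009-73703780, minus strand), the partner shared with the bone morphogenetic protein (BMP) branch, was at 28.0, 33.2, 23.7 and 24.8 CPM in WT and 31.5, 28.3, 23.0 and 26.6 CPM in Ucp1Δ/Δ mice. Replicates 1 and 2 of both genotypes were the higher mice, with full overlap, and the means were 27.4 ± 4.23 and 27.4 ± 3.54 CPM (SD, n = 4 each). Its log2FC was 0.0014 (SE 0.19, 95% interval -0.40 to 0.40, edgeR adjusted p = 0.997). The sign of these small values for Smad2 and Smad4 depended on the setting, and for Smad4 an interval of this width excludes neither a small rise nor a small fall.

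Tgfbi (ENSMUSG00000035493, chr13:56609523-56639562, plus strand) encodes a secreted matrix protein first identified as a gene induced by TGF-β. It was at 5.10, 4.93, 4.01 and 5.07 CPM in WT and 17.0, 16.5, 12.1 and 8.58 CPM in Ucp1Δ/Δ mice. The WT mice lay close together, the Ucp1Δ/Δ mice spread more, and the lowest of them, replicate 4, was still above every WT mouse. The mean rose from 4.78 ± 0.517 to 13.5 ± 3.96 CPM (SD, n = 4 each). The fitted rise was 2.87-fold (log2FC 1.52, SE 0.29, 95% interval 0.90 to 2.15, adjusted p = 0.00150, quasi-likelihood test of edgeR, Benjamini-Hochberg). It had the smallest adjusted p of the members and passed in all 18 alternative settings.

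**Figure D2:**
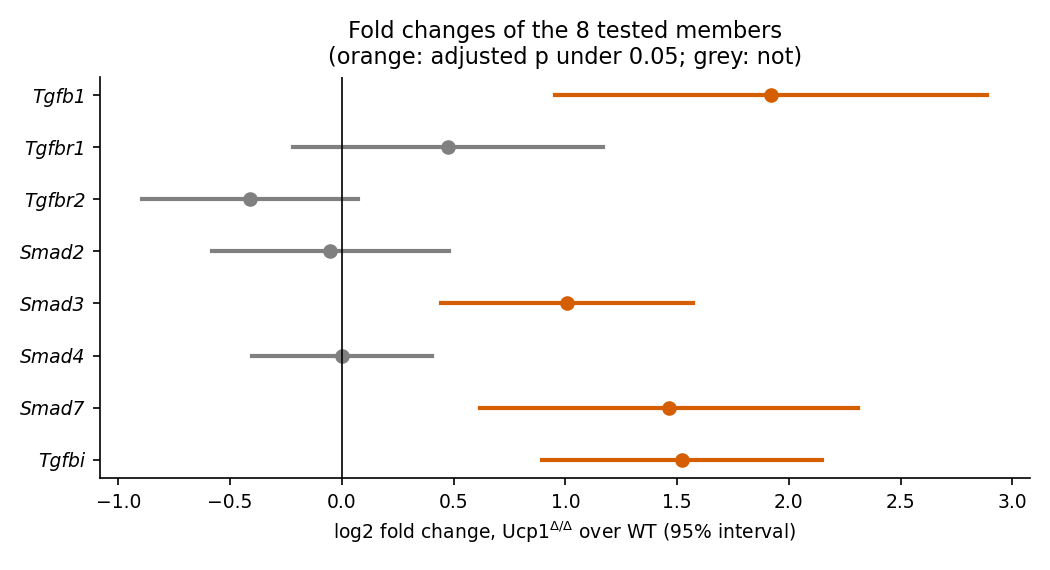
log2FC (Ucp1Δ/Δ over WT) of the 8 tested members with 95% intervals from edgeR's quasi-likelihood fit, in orange where the adjusted p is under 0.05 and in grey otherwise. The intervals of Tgfb1, Smad3, Smad7 and Tgfbi lie above 0, and those of Tgfbr1, Tgfbr2, Smad2 and Smad4 cross 0.

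The wider pathway was described with 5 lists holding 95 other genes, of which 64 were tested. In these lists 24 genes were higher in Ucp1Δ/Δ mice and 1 was lower, so 37.5% of the tested genes rose against 13.3% of all genes, and the median log2FC was 0.45. The lists were chosen with earlier results of these data known, so their shares describe the lists and do not test the pathway. The share that rose differed between the lists, from 64.7% of tested genes in the list of TGF-β targets to 10.5% of the intracellular regulators of SMADs. Genes such as Thbs1, Gdf15 and Fstl3 passed the filter on low counts through their level in Ucp1Δ/Δ mice, which favours genes that rose. When the filter asked each mouse for 10 counts, 16 of 47 tested genes of the 5 lists were higher and 1 lower. In the target list 8 of 13 were then higher, and over all genes 746 of 6928. With a filter of 1 count in any mouse all 95 were tested, and 33 were higher and 1 lower.

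**Figure D3:**
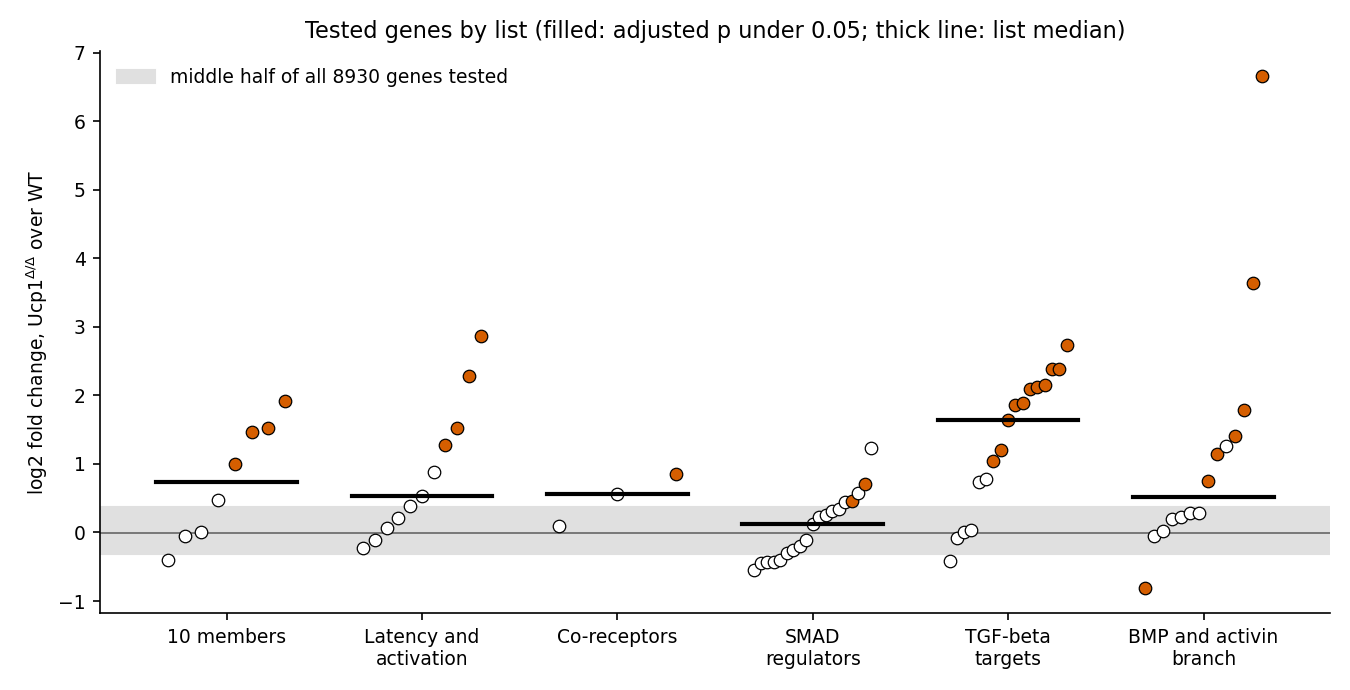
log2FC (Ucp1Δ/Δ over WT, vertical axis) of each tested gene in the 10 members and in the 5 wider lists, filled where the adjusted p is under 0.05, with a thick line at each list's median and a grey band for the middle part of all 8930 genes tested. Target genes sit highest (median 1.63), intracellular regulators lie around 0 (median 0.13), and the highest point, Gdf15, was counted 0 or 1 times in WT mice. The lists were chosen with earlier results of these data known.

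Among 15 genes for latency and activation of the ligand, 11 were tested, 4 rose and 0 fell, with a median log2FC of 0.52. Nrros, which anchors latent TGF-β1 on macrophages and related cells, was at 2.53 to 6.27 CPM in WT and 12.9 to 30.2 CPM in Ucp1Δ/Δ mice (log2FC 2.28, SE 0.37, edgeR adjusted p = 0.000381). Thbs1, encoding thrombospondin 1, which can release the ligand from its latent complex, was at 0.510 to 2.03 CPM in WT and 5.15 to 16.8 CPM in Ucp1Δ/Δ mice (log2FC 2.86, SE 0.46, edgeR adjusted p = 0.000345). Fbn1, encoding fibrillin 1 of the microfibrils that store latent TGF-β, had a log2FC of 1.53 (SE 0.27), and Dcn, encoding decorin, a matrix proteoglycan that binds TGF-β, one of 1.27 (SE 0.19). In each of these 4 genes the genotypes did not overlap. Such separation, with Ucp1Δ/Δ mice above, held in 4 of the 11 tested genes of the list and in 14.4% of all genes tested. The integrin subunit gene Itgav and the protease gene Furin, named after their values were seen for their known role in activation and processing, did not pass the test, with log2FC of -0.23 and -0.11.

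Of 5 co-receptor, accessory and decoy receptor genes, 3 were tested and 1, Acvrl1, rose, and 2 were higher without WT replicate 1 or with total counts only as the scaling. Acvrl1, encoding the type I receptor ALK1 of endothelial cells, was at 7.62 to 10.7 CPM in WT and 14.0 to 18.0 CPM in Ucp1Δ/Δ mice (log2FC 0.85, SE 0.22, edgeR adjusted p = 0.0135). The co-receptor genes Tgfbr3 (log2FC 0.56, edgeR adjusted p = 0.0760) and Eng (log2FC 0.09, edgeR adjusted p = 0.873), chosen after their values were seen because they complete the tested list, did not pass.

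The intracellular regulators had the lowest share of genes that rose, with 19 of 21 tested, 2 higher and 0 lower, and a median log2FC of 0.13. Nedd4l, an E3 ubiquitin ligase acting on activated SMADs, went from between 20.9 and 26.9 CPM to between 32.7 and 48.1 CPM (log2FC 0.70, SE 0.19, edgeR adjusted p = 0.0149). Fkbp1a, encoding FKBP12, which holds the type I receptor inactive, went from between 201.2 and 222.8 CPM to between 283.4 and 295.7 CPM (log2FC 0.45, SE 0.15, edgeR adjusted p = 0.0377). Neither call held in every setting. That of Nedd4l was lost in the fits that left out replicate 1 or 3 of WT or replicate 3 of Ucp1Δ/Δ (adjusted p from 0.0515 to 0.0526), and that of Fkbp1a in 7 of the 8 fits that left out a mouse (adjusted p up to 0.102), all but the one without WT replicate 2, and with the filter of 1 count in any mouse (adjusted p = 0.137). With 1 mouse left out, the list had 0 genes higher without WT replicate 1, WT replicate 3 and Ucp1Δ/Δ replicate 3 in turn, 3 without WT replicate 2, and 1 in each of the other 4 fits that left out a mouse. The share of this list that rose, 10.5%, was near the 13.3% of all genes.

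The list of 27 TGF-β target genes held 17 tested genes, of which 11 rose and 0 fell, with a median log2FC of 1.63. Those with the smallest adjusted p encode the fibrillar matrix and enzymes or proteins that bind it. Col3a1 was at 40.1 to 90.7 CPM in WT and 267.1 to 607.7 CPM in Ucp1Δ/Δ mice (log2FC 2.74, SE 0.30, edgeR adjusted p = 1.19e-05). Col1a1 went from 32.6 ± 6.68 to 170.3 ± 60.0 CPM (SD, n = 4 each; log2FC 2.39, SE 0.25), and Fn1, encoding fibronectin, from 3.70 ± 1.20 to 19.5 ± 6.69 CPM (log2FC 2.39, SE 0.32). Bgn, encoding biglycan, had a log2FC of 2.10 (SE 0.21), and Lox, encoding the collagen cross-linking enzyme lysyl oxidase, one of 1.88 (SE 0.18). The other genes that rose were Ccn1, Col1a2, Acta2, Junb, Sparc and Itgb5, and for Ccn1 and Junb the genotypes overlapped.

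Not every gene of the target list rose. Tagln, Postn, Klf10, Cdkn1a, Tpm1 and Id1 did not pass the test, with log2FC between -0.42 for Id1, which is better known as a target of BMP signalling, and 0.78 for Tpm1, and the early response gene Klf10 was at 15.7 ± 4.84 CPM in WT and 14.8 ± 5.44 CPM in Ucp1Δ/Δ mice (SD, n = 4 each). With the filter of 1 count in any mouse, all 27 targets were tested and 18 were higher. These genes outside the 5 of smallest adjusted p were singled out after their values were seen.

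In the list for the BMP and activin branch, 14 of 27 genes were tested, 6 rose and 1 fell, with a median log2FC of 0.52. The share that rose was 42.9%, against 13.3% of all genes tested. The branch shares Smad4 with TGF-β, but the count includes Gdf15 and the protease gene Bmp1 and does not measure SMAD signalling. Gdf15, a stress-induced relative of the TGF-β ligands, was counted 1, 0, 1 and 1 times in WT and 215, 73, 90 and 35 times in Ucp1Δ/Δ mice (edgeR adjusted p = 8.15e-06), and no fold is given because its fitted value depends on so few WT counts. Fstl3, which encodes a secreted inhibitor of activin, went from 0.924 ± 0.480 to 12.6 ± 9.32 CPM (SD, n = 4 each; log2FC 3.64, SE 0.59), on WT counts of 1, 3, 4 and 1, and its log2FC was 2.998 without Ucp1Δ/Δ replicate 1. Fstl1, encoding a secreted follistatin-like glycoprotein, had a log2FC of 1.78 (SE 0.28), and Bmp1, encoding a procollagen protease rather than a growth factor, one of 1.41 (SE 0.38). The call of Bmp1 was lost without WT replicate 3, Ucp1Δ/Δ replicate 1 or Ucp1Δ/Δ replicate 2 (adjusted p from 0.0505 to 0.0599). Smad1, the transducer of the BMP branch, had a log2FC of 1.14 (SE 0.28), and Fst, encoding follistatin, had one of 0.75 (SE 0.24, edgeR adjusted p = 0.0379), a call that was lost with the filter of 1 count in any mouse (adjusted p = 0.0740). Acvr1c, encoding the activin receptor ALK7 of adipocytes, was the gene that fell, from 90.3 ± 6.66 to 51.6 ± 4.93 CPM (SD, n = 4 each; log2FC -0.80, SE 0.16, edgeR adjusted p = 0.00169).

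Aldh1a1 (ENSMUSG00000053279) encodes a retinaldehyde dehydrogenase. The study reports its expression as increased in BAT of diabetic db/db and of Ucp1 KO mice, and proposes that TGF-β1 induces it. Whether Ucp1 KO there means Ucp1Δ/Δ is not stated. Here the gene was at 15.8, 14.3, 7.68 and 17.2 CPM in WT and 26.9, 31.7, 11.3 and 19.7 CPM in Ucp1Δ/Δ mice. WT replicate 3 and Ucp1Δ/Δ replicate 3 were the lowest of their genotypes, and the latter lay below 3 of the WT mice. The mean was 13.8 ± 4.22 CPM in WT and 22.4 ± 8.91 CPM in Ucp1Δ/Δ mice (SD, n = 4 each), and the log2FC of 0.74 (SE 0.31, 95% interval 0.08 to 1.41) did not pass (adjusted p = 0.109, quasi-likelihood test of edgeR, Benjamini-Hochberg). It passed without Ucp1Δ/Δ replicate 3 (log2FC 0.97, adjusted p = 0.0249) and with the filter of 1 count in any mouse (log2FC 0.72, adjusted p = 0.0365).

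Markers of macrophages and of fibroblasts and progenitors also differed between the genotypes. The sum of 14 macrophage markers was between 120.2 and 179.7 CPM in WT and between 1079 and 1751 CPM in Ucp1Δ/Δ mice, and 11 of the 12 tested markers rose, among them Csf1r (log2FC 2.83), Lyz2 (log2FC 3.67) and Cd68 (log2FC 4.64). The sum of 10 fibroblast and progenitor markers was between 102.9 and 134 CPM in WT and between 254.1 and 435.3 CPM in Ucp1Δ/Δ mice, and 7 of the 8 tested rose, among them Mfap5 (log2FC 3.11), Lum (log2FC 2.23) and Dpt (log2FC 1.60). Over all genes tested, 13.3% rose. Cd68, at 1.67 to 4.48 CPM in WT, passed the filter on low counts through its level in Ucp1Δ/Δ mice, as did the macrophage markers Adgre1 and Trem2. Neither sum overlapped between the genotypes. Both sums were highest in Ucp1Δ/Δ replicate 2, as were Smad7, Col1a1, Col3a1, Fn1 and Bgn. Tgfb1, Smad3 and Tgfbi were highest in Ucp1Δ/Δ replicate 1, Tgfbi only slightly (17.0 CPM against 16.5 in replicate 2), and Lox in replicate 4. The part of either cell type in the rise of Tgfb1, Smad3, Smad7, Tgfbi or the matrix genes was not tested, and in bulk tissue more cells of a type and more RNA per cell cannot be told apart.

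Among 6 platelet genes, Pf4 alone was tested and rose (6.16 ± 1.87 to 46.6 ± 16.0 CPM, SD, n = 4 each; log2FC 2.95), while the platelet genes Ppbp, Itga2b, Gp9, Gp1bb and Treml1 were counted 0 to 8 times in each mouse. The mean CPM of each of these untested genes was lower in Ucp1Δ/Δ than in WT mice, so the separation of the platelet sum rests on Pf4. Of 11 lymphocyte and neutrophil genes 0 passed the filter on low counts, with sums of 4.56 to 13.0 CPM in WT and 7.30 to 17.0 CPM in Ucp1Δ/Δ mice, and Cd79a and Ly6g were at 0 in all mice. The endothelial sum overlapped between genotypes, with 1 of 8 tested genes, Tie1, higher (log2FC 0.81), and so did the pericyte and smooth muscle sum, with 0 of 6 tested genes higher or lower by edgeR's quasi-likelihood test. Of the 12 brown adipocyte markers 1 rose, Dio2 (log2FC 1.45), and 5 fell, among them Cidea (log2FC -1.16), Adipoq (log2FC -0.82) and Elovl3 (log2FC -1.96). Over all genes tested, 13.3% were higher and 7.63% lower. Ucp1 was among those that did not pass (log2FC -0.34, edgeR adjusted p = 0.481). Dio2 and Ucp1 were named after their values were seen.

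**Figure D4:**
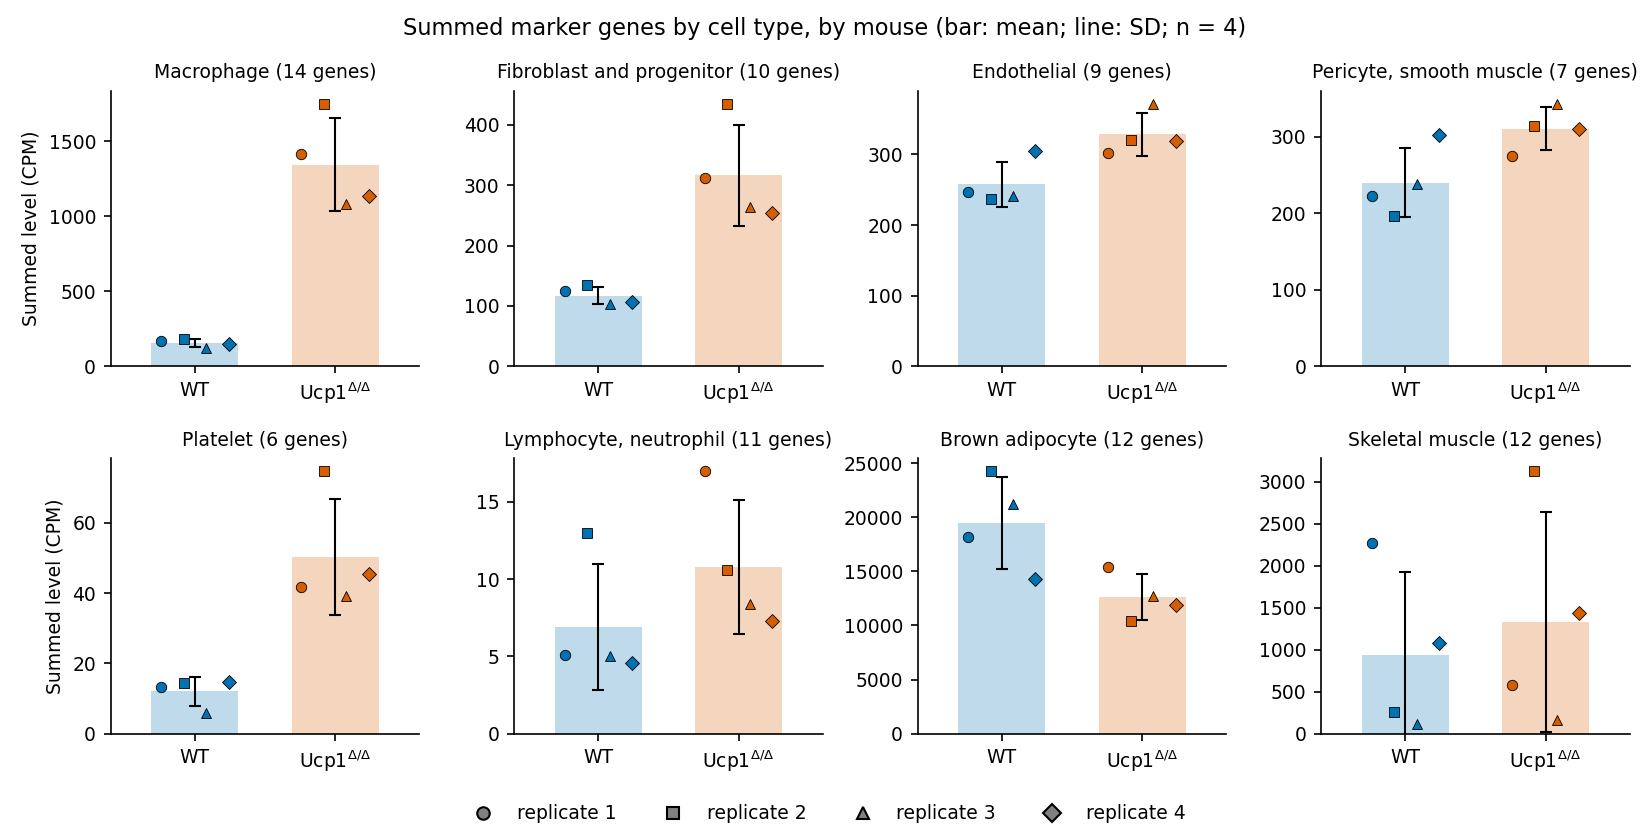
Summed level in CPM of 8 lists of cell type markers in each mouse (shape gives the replicate number), with bars for the mean and lines for the SD (n = 4 mice per genotype; linear axes from 0). The macrophage, fibroblast and platelet sums separate the genotypes, the platelet sum through Pf4 alone, and the skeletal muscle sum varies widely within both.

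The genes whose profile over the 8 mice was closest to that of Tgfb1, by the mean absolute difference of log2 CPM centred on each gene's mean, were Irak2 (0.177), Nfatc4 (0.217), Ifitm2 (0.257), Ctsh (0.265) and Dusp3 (0.265). For Tgfbi they were Jpt1 (0.120), Tpm4 (0.159), Lpar1 (0.167), Limd2 (0.167) and Gpx1 (0.176). The profiles include the difference between genotypes, so genes higher in Ucp1Δ/Δ mice were favoured by this choice.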

How the data were processed

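BAT of 4 WT and 4 Ucp1Δ/Δ mice was grouped by the labels' genotype. The authors deposited whole-number counts per Ensembl gene without normalization. They also deposited log2 values, each equal to the log2 of the count times 1 factor per mouse, plus 1, which were used in 1 alternative. The study's methods name bbduk, STAR and HTseq-counts on mm10, while the submitters' processing notes name Trimmomatic and HISAT2, and DESeq2 appears in both. The setting for strand is not given in the sources used here.

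Symbols and positions were taken from GENCODE annotation of mm10 (31011 of 31053 identifiers). The tools were edgeR 4.0.16, DESeq2 1.42.0 and limma 3.58.1 under R 4.3.3. Counts were filtered with filterByExpr, scaled by TMM and tested on genotype alone by the quasi-likelihood method of edgeR, with adjustment after Benjamini-Hochberg over all 8930 genes and a threshold of 0.05, where the study used DESeq2. Standard errors were derived from the F statistic. The steps were tested on simulated data. There, 59.2% of genes given a log2 change of 1 in either direction were recovered, and 100% of those given 2. Of the calls, 8.64% were false, above the threshold of 0.05. Library sizes after TMM scaling were used for CPM, with a prior count of 2 on the log2 scale. Two-sided exact permutation tests used all 70 assignments of mice, with unadjusted p. Between mice of the same genotype, chi-square per degree of freedom was 4.69 to 23.2, and no library was treated as a duplicate.

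The members and lists were chosen with earlier results of these data known. Genes named were the members, Pnpla2, Aldh1a1, in each pathway list the 5 called genes of smallest adjusted p per direction, up to 3 called genes per marker list, and the 5 genes closest in profile to Tgfb1 and to Tgfbi. Alternatives were other scaling, tests and filters, a replicate block and each mouse left out. A model with the skeletal muscle markers as a covariate was added after seeing the data.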

Additional observations from a re-analysis of the deposited data

Results flagged for a closer look

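In each group of 4 mice the gap between the most extreme mouse and its nearest neighbour was divided by the range of the group, and shares above Dixon's 95% critical value are given here. This held in 12 of the 76 groups examined, where chance gives about 1 in 20, or 3.8. The groups share the same 8 mice and are not independent.

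Among the members, Tgfb1 stood apart in Ucp1Δ/Δ replicate 1 (gap share 0.932, 13.8 CPM against 4.98 to 5.58 in the others). Smad3 was low in Ucp1Δ/Δ replicate 4 (0.838, 16.7 CPM against 24.7 to 26.2), and Tgfbi was low in WT replicate 3 (0.843, 4.01 CPM against 4.93 to 5.10). In the wider lists, Nrros was high in Ucp1Δ/Δ replicate 2 (0.899, 30.2 CPM against 12.9 to 14.6), as was Fstl1 (0.863, 49.5 CPM against 25.8 to 29.0). Fbn1 was low in WT replicate 3 (0.854, 4.34 CPM against 7.60 to 8.16) and Col3a1 high in WT replicate 4 (0.845, 90.7 CPM against 40.1 to 47.9). Fkbp1a was high in Ucp1Δ/Δ replicate 4 (0.870, 295.7 CPM against 283.4 to 285.0) and Acvr1c low in Ucp1Δ/Δ replicate 3 (0.872, 44.3 CPM against 53.4 to 54.8). Of the marker sums, that of lymphocytes and neutrophils was high in WT replicate 2 (0.936, 13.0 CPM against 4.56 to 5.10), that of platelets low in WT replicate 3 (0.835, 6.01 CPM against 13.3 to 14.7) and that of endothelial cells high in WT replicate 4 (0.852, 304.5 CPM against 237.4 to 247.3).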

How the results depend on the processing

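Tgfb1, Smad3 and Tgfbi kept their direction and call in every alternative in which they were tested, and Smad7 in 13 of 15. The depth limits Tgfb2, Tgfb3 and Smad7 most. With at least 10 counts in every mouse, 5 members were tested and 2 passed, since the filter removed Tgfb1 and Smad7, and over all genes 1195 were called against 1872 (746 higher against 1191, 449 lower against 681). With total counts only as the scaling, 404 genes were lower, the share of higher calls went from 63.6% to 78.5%, and the median log2FC over the tested genes moved from -0.0087 to 0.13. Relative to that median Tgfb1 was then at 1.92 and Tgfbr2 at -0.40. Smad2 changed sign, to 0.089 with total counts only (0.076 in mean log2 CPM) and to 0.020 with at least 10 counts in every mouse. Smad4, at 0.14 with total counts only (0.13 in mean log2 CPM), became -0.016 with DESeq2's size factors, -0.00012 without mitochondrially encoded genes, -0.034 with DESeq2's Wald test, -0.039 with limma trend on the deposited log2 values, -0.025 with at least 1 count in any mouse and -0.019 with the muscle markers as covariate, a model added after seeing the data in which 4 members passed. The cause was not tested. With each mouse left out, calls ranged from 1345 to 2155 in all, from 945 to 1304 higher and from 400 (without Ucp1Δ/Δ replicate 2) to 851 lower, 3 or 4 members passed, 1 to 3 wider pathway genes were lower (3 without WT replicate 2), and log2FC ranged from -0.12 to 0.020 for Smad2 and from -0.078 to 0.097 for Smad4. The wider pathway lists had 22 to 31 calls with a mouse left out and 17 to 34 in the other settings, against 25. Of 335 values for 19 other named genes (18 pathway genes and Aldh1a1), 318 kept direction and call, 15 lost the call, 2 gained it, both for Aldh1a1, and 0 changed sign.

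The replicate numbers only name the mice. Deviations of same-numbered mice correlated at -0.0873, -0.196, 0.304 and 0.241, and 1 of 4 correlated best with its own number. With the replicate block 1719 genes were called (1138 higher, 581 lower), 4 members and 24 wider pathway genes passed, Tgfb1 had a log2FC of 1.83, Smad4 became -0.0049 and Fkbp1a lost its call.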
